A study of Mus musculus with 10 samples.

Results

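The clustered protocadherin genes are a family of neural cell adhesion genes that lie side by side in an alpha, a beta and a gamma cluster on mouse chromosome 18. Members were chosen by gene symbol (Pcdha, Pcdhb, Pcdhga and Pcdhgb with a number, Pcdhac1, Pcdhac2, Pcdhgc3, Pcdhgc4 and Pcdhgc5) and by a total of at least 10 counts over all libraries. Of 39769 symbols in the table, 58 matched and 57 were kept: 14 alpha, 21 beta and 22 gamma genes. Pcdhb1 matched but had 0 counts in all. The comparisons below cover 55 of the 57, because Pcdhb2, with 50 counts in total, and Pcdhb21, with 63, did not pass the filter on low counts.

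Each alpha and gamma gene has its own promoter and large variable exon, which is spliced to short constant exons shared by its whole cluster, so that proteins differ outside the cell and share a tail inside it. Beta genes lack such constant exons. Individual neurons transcribe a small, largely random subset of these promoters through looping by CTCF and cohesin and through DNA methylation, while the C-type genes at the end of the alpha and gamma clusters (Pcdhac1, Pcdhac2, Pcdhgc3, Pcdhgc4 and Pcdhgc5) are expressed more uniformly. The proteins bind copies of themselves across cell contacts and are known for self-avoidance of dendrites and axons, including those of Purkinje cells in the cerebellum, and for survival of interneurons.

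RNA was sequenced in 10 mouse libraries, and every mouse was Ptch+/- by label, that is, heterozygous for loss of Ptch1, the receptor that restrains the Sonic hedgehog pathway. The NKP group holds 3 medulloblastoma libraries of genotype Nestin-Cre Kmt2dfl/+ Ptch+/-, all from mice aged 4 months, in which Cre acts in neural stem and progenitor cells and their descendants. The AKP group holds 3 medulloblastoma libraries of genotype AtohI-Cre Kmt2dfl/+ Ptch+/-, in which Cre acts in granule neuron precursors. AKP 1 and AKP 2 came from mice aged 2 months and AKP 3 from a mouse aged 4 months. The Ptch group holds 4 control cerebellum libraries whose label gives the genotype Ptch+/- and nothing else. Mice were 4 months old for Ptch 1 and Ptch 2, but 2 months old for Ptch 3 and Ptch 4. Medulloblastoma is a tumour of the cerebellum, and Kmt2d encodes a histone methyltransferase of enhancers. The study asked how loss of 1 Kmt2d copy promotes these tumours, by comparing tumour-bearing cerebella with Ptch+/- cerebella. The labels do not say how much of the tissue was tumour, nor whether each library of a group is another animal. The p-values therefore measure the spread between these libraries. In bulk tissue, fewer cells of a type and less RNA per cell cannot be told apart.

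Total counts ran from 12300430 to 19348991 per library. The libraries did not all sit with their labels. Kmt2d was at 33.2, 46.9 and 58.0 CPM (counts scaled to library size) in the 3 NKP libraries and 34.3, 41.3 and 43.6 CPM in the AKP libraries, against 52.6 to 68.4 CPM in the Ptch libraries, so that NKP 3 lay within the Ptch range. Mki67, a gene of dividing cells, was at 0.575 to 0.719 CPM in NKP 1, NKP 2 and AKP 1, and at 80.4 and 84.1 CPM in the control libraries Ptch 1 and Ptch 2. Atoh1, the defining gene of granule neuron precursors, was at 0 in NKP 1 and AKP 1. The labelled sex did not match Y-linked expression in 4 libraries, NKP 3, AKP 3, Ptch 1 and Ptch 3. No pair of libraries agreed within sampling noise, as measured by a chi-square per degree of freedom over genes, but some were closer to another group than to their own. NKP 1 and AKP 1 differed by 3.44, whereas AKP 1 differed from AKP 2 and AKP 3 by 37.0 and 18.5 and NKP 1 from NKP 2 and NKP 3 by 15.7 and 16.6. NKP 3 and Ptch 4 differed by 3.81, whereas NKP 3 differed from NKP 2 by 15.1. The closest pairs within a group were Ptch 3 and Ptch 4 at 3.28 and Ptch 1 and Ptch 2 at 3.46. Groups were kept as labelled, and whether labels were exchanged was not tested, which limits every comparison below.

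The family spans positions 36930285 to 37841873 of chromosome 18 (GRCm38.p6, RefSeq), with the alpha genes before 37188897, the beta genes between 37294840 and 37521419, and the gamma genes from 37661775 on. The alpha genes share a 3′ end of 2860 to 2866 bases in their longest annotated transcripts (GENCODE vM21), and the gamma genes one of 2116 to 2130 bases. In the median alpha gene 60.0% of all 50-base words also occur in another family member, in the median gamma gene 45.1%, and in the median beta gene 4.82%. Reads from such words can be divided among members only by estimation, so that values of single alpha and gamma genes are uncertain, while cluster sums do not depend on how reads were divided within a cluster. Among 140 values of alpha genes 10 were exactly 0, spread over 6 genes, whereas 2 of 210 beta values and 0 of 220 gamma values were 0. The coefficient of variation within groups had a median of 54.6% over single alpha genes, against 8.45% for the alpha sum. It was 22.6% over single gamma genes, against 6.30% for the gamma sum, and 20.8% over single beta genes, against 13.2% for the beta sum. The median over all genes tested was 14.1%.

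Levels per kilobase of transcript differed widely between genes, and 2 C-type genes led their clusters. Pcdhgc3, whose product binds Axin1 and dampens Wnt signalling, averaged 64.2 CPM per kb over the 10 libraries. The next gamma gene, Pcdhga11, averaged 8.66 CPM per kb, and the lowest tested gamma genes were Pcdhga1 at 0.986 and Pcdhgb8 at 0.128 CPM per kb. In the alpha cluster Pcdhac2, which is needed for the spacing of serotonergic axons in mouse, averaged 6.38 CPM per kb and Pcdhac1 followed at 1.39 CPM per kb. Pcdha6 and Pcdha8 were the lowest alpha genes, at 0.262 and 0.209 CPM per kb. Beta genes had no such leader: Pcdhb20 and Pcdhb9 averaged 3.37 and 3.34 CPM per kb, which did not differ beyond their spread, and the lowest tested beta genes, Pcdhb19 and Pcdhb8, averaged 0.446 and 0.408 CPM per kb. Pcdhgc3 made up 41.5 to 45.6% of the gamma sum in the 10 libraries. Pcdhac2 made up 47.1 to 48.4% of the alpha sum in NKP, 34.3 to 41.3% in AKP and 36.9 to 47.5% in Ptch libraries.

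**Figure D1:**
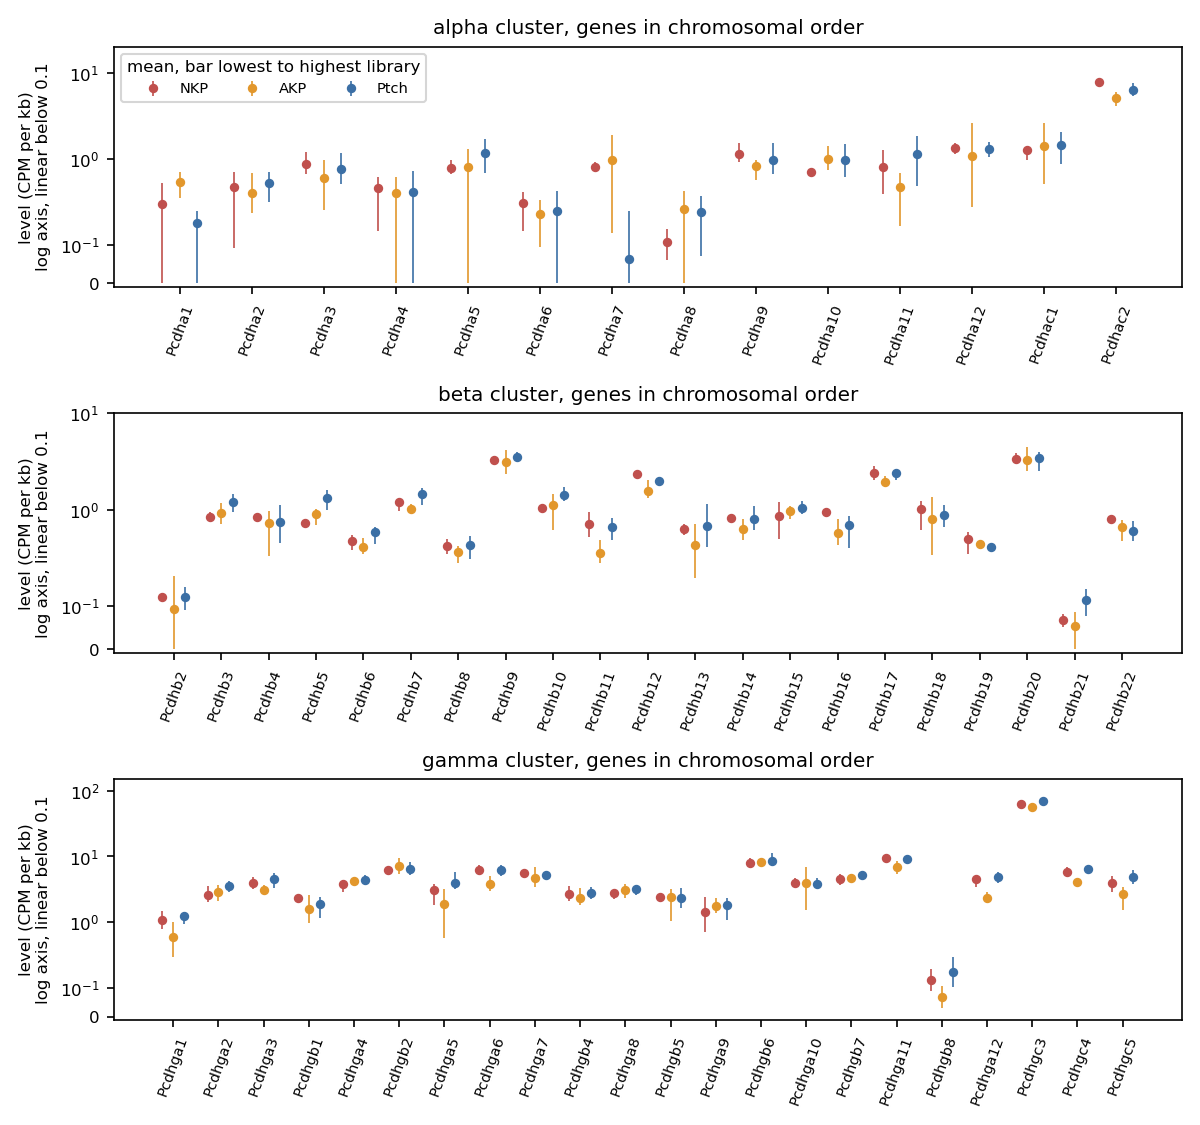
Level of each clustered protocadherin gene per kilobase of its longest transcript (CPM per kb, log axis that is linear below 0.1), in chromosomal order within the alpha, beta and gamma clusters. Points are group means (NKP 3, AKP 3, Ptch 4 libraries) and bars run from the lowest to the highest library; Pcdhgc3 (mean 64.2 CPM per kb) and Pcdhac2 (6.38) lead their clusters, and several alpha genes reach 0 in a library.

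Summed over all members of a cluster, the gamma genes were lower in AKP than in every Ptch library, while the alpha and beta sums overlapped. The gamma sum was 679, 662 and 752 CPM in the NKP libraries, 656, 580 and 584 CPM in the AKP libraries, and 816, 769, 730 and 732 CPM in Ptch 1 to 4. The NKP range overlapped the Ptch range and all 3 AKP libraries lay below both. The alpha sum was 91.3, 101 and 94.8 CPM in NKP, 88.8, 70.6 and 75.0 CPM in AKP and 86.0, 80.1, 94.9 and 89.1 CPM in Ptch libraries. The beta sum was 89.1, 94.9 and 98.5 CPM in NKP, 99.7, 67.5 and 73.4 CPM in AKP and 89.0, 89.1, 107 and 99.8 CPM in Ptch libraries. In both of these clusters AKP 2 and AKP 3 were the lowest libraries of all, and AKP 1 lay within the Ptch range. The sums leave out 3 joined gene models that start at alpha genes and end with the gamma cluster. Among them, Gm38666 had 103 counts in AKP 3 and 1 in Ptch 2, so the order of libraries in the alpha sum can depend on where such reads are placed. Within the gamma cluster, the sum of the B-type genes averaged 124 ± 7.42 CPM in AKP and 127 ± 18.8 CPM in Ptch libraries (SD, n = 3 and 4), against 186 ± 14.5 and 247 ± 12.2 CPM for the A-type genes and 297 ± 21.3 and 388 ± 27.6 CPM for the C-type genes. The B-type sum was 155 CPM in Ptch 1 and 113 to 122 CPM in the other Ptch libraries. B-type genes made up 20.1 to 20.9% of the gamma sum in AKP, 17.3 to 17.9% in NKP and 15.4 to 19.0% in Ptch libraries, and the AKP libraries lay above all others. No test was made of these sums and shares.

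**Figure D2:**
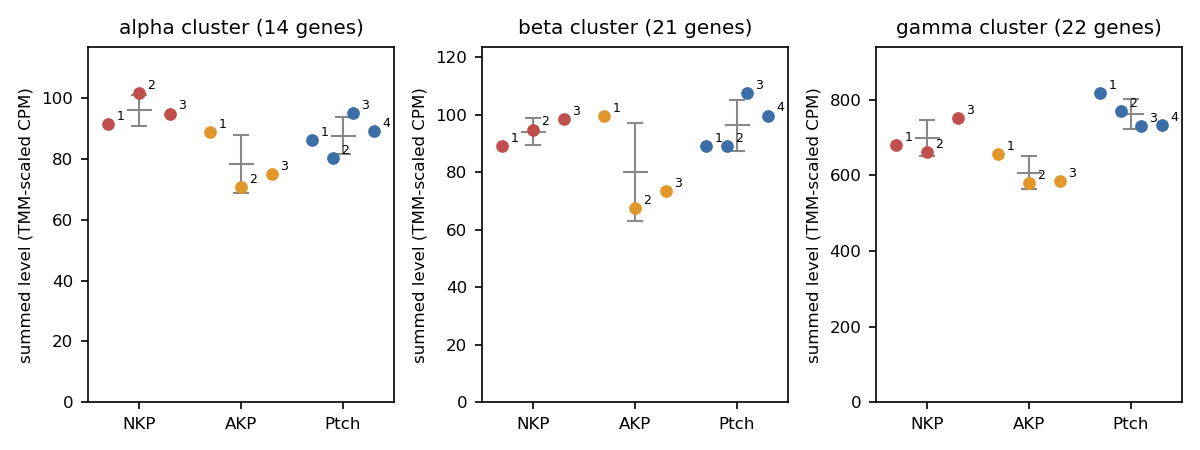
Summed level (CPM scaled by the trimmed mean of M values, TMM) of the 14 alpha, 21 beta and 22 gamma genes in each library, by group. Points are libraries with their replicate numbers and grey bars are means with 1 SD (n = 3, 3 and 4); the AKP libraries lie below all Ptch libraries for the gamma sum (580 to 656 against 730 to 816 CPM) and overlap them for the alpha and beta sums.

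In AKP against Ptch, the comparison of the AtohI-Cre tumours with control cerebellum, 3 of 55 tested members passed the test and all were gamma genes lower in AKP. The test was edgeR's quasi-likelihood test at a Benjamini-Hochberg adjusted p below 0.05 over 15617 genes, of which it called 2.3% lower and 3.38% higher. Pcdhga12, an A-type gene, was at 14.5, 9.96 and 11.3 CPM in AKP 1 to 3 and 22.2, 19.9, 29.1 and 27.8 CPM in Ptch 1 to 4. Every AKP library lay below every Ptch library, and the log2 fold change was -1.06 (SE 0.19, adjusted p = 0.0209). Pcdhgc4, which keeps inhibitory interneurons alive during mouse development, was at 21.4, 19.0 and 21.7 CPM in AKP and 36.7, 33.8, 27.7 and 33.1 CPM in Ptch libraries. Its groups did not overlap either, and its log2 fold change was -0.67 (SE 0.13, adjusted p = 0.0220). Pcdhgc3 was at 286, 255 and 251 CPM in AKP and 347, 351, 321 and 308 CPM in Ptch libraries. The AKP libraries were again the lower ones without overlap, and the fold change was -0.33 on the log2 scale (SE 0.09, adjusted p = 0.0466).

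The calls changed with the libraries used. Without AKP 1 there were 6 called members, all lower, while 4.2% of genes were called lower: Pcdhga12, Pcdhgc4, Pcdhgc3, Pcdhga6, Pcdhga7 and Pcdha12, the last 2 named after their values were seen. Without AKP 2, AKP 3, Ptch 1 or Ptch 2 there were 0, and without Ptch 4 there was 1. There were also 0 among age-matched libraries (AKP 1 and AKP 2 against Ptch 3 and Ptch 4), without the 4 libraries that went against the sex label, and when fold changes were corrected for length and GC. In each setting with 0 called members, at most 12 of all genes tested were called. With DESeq2, 6 members were called, all lower, of 50 with an adjusted p, while 6% of genes were called lower: Pcdhga12, Pcdhgc4, Pcdhgc3, Pcdhga6, Pcdhgc5 and Pcdhga1. Over 23 alternatives the log2 fold change stayed below 0 for Pcdhga12 (-1.22 to -0.91), Pcdhgc4 (-0.74 to -0.51) and Pcdhgc3 (-0.39 to -0.19), and they were called in 15, 14 and 8 of these.

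**Figure D3:**
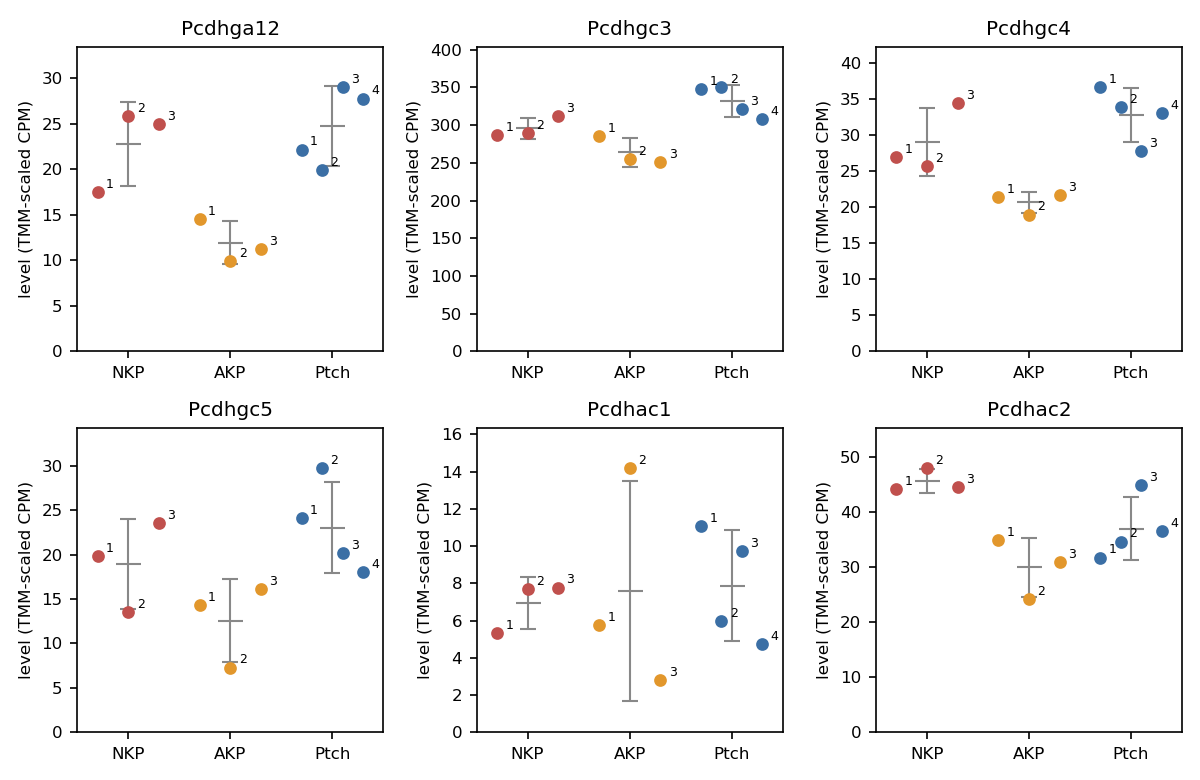
Level (TMM-scaled CPM) of the 3 genes called in AKP against Ptch (Pcdhga12, Pcdhgc3 and Pcdhgc4) and of the other C-type genes in each library, by group. Points are libraries with their replicate numbers and grey bars are means with 1 SD; Pcdhga12 was at 9.96 to 14.5 CPM in AKP and 19.9 to 29.1 CPM in Ptch libraries, whereas Pcdhac1 ranged from 2.80 to 14.2 CPM within AKP alone.

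The other members mostly had fold changes below 0 that did not pass the test. In AKP against Ptch 46 of 55 members (83.6%) lay below 0, against 52.3% of all genes tested. The median log2 fold change was -0.18 over the alpha, -0.32 over the beta and -0.29 over the gamma genes, against -0.019 over all genes tested. Without AKP 2 the alpha median was 0.10, so that its direction rested on that library. The beta median ran from -0.48 without AKP 1 to -0.19 without AKP 2, and the gamma median from -0.40 without AKP 1 to -0.23 without AKP 3. With correction for length and GC the alpha median was -0.040 and the gamma median -0.15. At an unadjusted p below 0.05 there were 13 lower members and 1 higher, where 12.7% and 12.4% of all genes were lower and higher. Groups did not overlap for 6 lower members and 1 higher, where 12% and 12.9% of all genes did so. Read against these shares, 6 of 55 members without overlap is near the background. Within the gamma cluster the median was -0.36 over 12 A-type genes, -0.14 over 7 B-type genes and -0.67 over 3 C-type genes.

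Pcdhgc5, whose product associates with GABA-A receptors at rat synapses, was at 14.3, 7.29 and 16.1 CPM in AKP 1 to 3 and 24.1, 29.8, 20.2 and 18.1 CPM in Ptch 1 to 4. The groups did not overlap, but the log2 fold change of -0.87 did not pass the test (SE 0.29, adjusted p = 0.0907). Pcdhac2 was at 34.9, 24.2 and 31.0 CPM in AKP and 31.8, 34.7, 45.0 and 36.6 CPM in Ptch libraries, with overlap and a log2 fold change of -0.31 (adjusted p = 0.190). Pcdhac1, like other alpha proteins known to need a partner protocadherin to reach the cell surface, had no steady direction. It was at 5.75, 14.2 and 2.80 CPM in AKP, a range that enclosed all 4 Ptch libraries at 11.1, 5.99, 9.72 and 4.75 CPM, and its log2 fold change of -0.049 changed sign in 7 of 23 alternatives. Among beta genes, Pcdhb11 had the smallest p. It was at 2.14, 1.23 and 1.40 CPM in AKP and 2.15, 3.20, 2.65 and 3.61 CPM in Ptch libraries, with a log2 fold change of -0.88 (adjusted p = 0.105), and the groups were separated only by the gap between AKP 1 and Ptch 1. Pcdhb7 followed with a log2 fold change of -0.54 (adjusted p = 0.154) and overlapping groups.

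Other A-type gamma genes, named after their values were seen, showed how much single members varied within a group. Pcdhga6 lay just outside the threshold, at 23.8, 16.9 and 14.2 CPM in AKP and 35.2, 29.6, 23.7 and 27.5 CPM in Ptch libraries (-0.67, SE 0.18, adjusted p = 0.0503). Its groups overlapped only between AKP 1 and Ptch 3. Pcdhga5 was at 15.0, 2.67 and 8.55 CPM in AKP and 27.5, 16.8, 15.1 and 15.3 CPM in Ptch libraries, which did not overlap, and its log2 fold change of -1.10 did not pass (adjusted p = 0.237). Pcdhga10 was at 7.32, 32.9 and 14.8 CPM in AKP, enclosing the 15.7 to 21.9 CPM of the Ptch libraries. Pcdhga7 was at 33.0 CPM in AKP 1 and 15.9 and 17.3 CPM in AKP 2 and AKP 3, against 22.1 to 27.1 CPM in Ptch libraries. The highest and the lowest AKP library were thus different ones for Pcdhga10 and Pcdhga7.

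Markers of several cell types differed between AKP and Ptch, some of them also between NKP and Ptch. Their part in the lower gamma genes was not tested. Over all genes, edgeR called 3.38% higher and 2.3% lower in AKP against Ptch. DESeq2 called 1792 of 13746 genes with an adjusted p there. At an unadjusted p below 0.05, 12.4% of all genes were higher and 12.7% lower. Of 7 tested genes of cholinergic motor neurons, 4 were called higher in AKP than in Ptch: Slc18a3, the vesicular acetylcholine transporter, Prph, Hoxb5 and Calca, and DESeq2 called 3. The list of 10 summed to 11.3, 27.1 and 22.4 CPM in AKP, against 6.85 to 7.48 CPM in Ptch libraries, with Mnx1 and Hoxb8 at 0 in every library. All 10 oligodendrocyte genes had fold changes above 0, with 8 at an unadjusted p below 0.05, 1 called by edgeR (Mobp) and 7 by DESeq2. Their list summed to 8859 to 11092 CPM in AKP and 6016 to 7428 CPM in Ptch libraries, without overlap. All 8 endothelial genes lay above 0, with 1 called by edgeR (Ly6c1) and 2 by DESeq2, and summed to 212 to 254 CPM in AKP and 149 to 203 CPM in Ptch libraries. The cerebellar interneuron list was mixed, with 4 genes above 0 and 6 below, a median of -0.066 and 1 gene called higher (Pvalb). The list of red blood cells, with 3 of 6 genes called higher by edgeR and 5 by DESeq2, summed to 1742 to 2233 CPM in AKP and 711 to 816 CPM in Ptch libraries. Of 9 tested serotonergic genes 0 were called by edgeR or DESeq2 (1 at an unadjusted p below 0.05), yet the list summed to 37.9, 169 and 135 CPM in AKP 1 to 3, against 67.0 to 73.7 CPM in Ptch libraries. Pcdhac2, the alpha gene known from serotonergic axons, was lowest in AKP 2. Tph2, named after its values were seen, is the serotonin synthesis enzyme of the brain, and that library had the most of it (45.5 CPM). This rests on 1 library, and a link between Pcdhac2 and serotonergic cells was not tested. Of 10 granule neuron precursor genes 0 were called by edgeR or DESeq2 (1 at an unadjusted p below 0.05), and the list summed to 1231 to 1436 CPM in AKP and 1556 to 1681 CPM in Ptch libraries. Genes of dividing cells summed to 6.16, 209 and 168 CPM in AKP and to 103 to 337 CPM in Ptch libraries. In NKP against Ptch all oligodendrocyte, endothelial and red blood cell genes also lay above 0, with medians of 0.52, 0.48 and 0.97. Their medians in AKP against Ptch were 0.55, 0.12 and 1.23. Genes of dividing cells had a median of -3.32 in NKP and -0.73 in AKP against Ptch. The serotonergic medians had opposite signs, -0.80 in NKP and 0.82 in AKP against Ptch. edgeR called 0 of these genes in NKP against Ptch, as it did 0% of all genes. An unadjusted p below 0.05 was reached by 9 oligodendrocyte, 6 red blood cell and 8 endothelial genes, all higher. It was also reached by 10 genes of dividing cells and 1 serotonergic gene, all lower. Over all genes, 6.79% were higher and 10.2% lower at that level. DESeq2 calls were 5 for oligodendrocytes, 3 for dividing cells, 2 for endothelium, 1 for red blood cells and 0 for serotonergic cells. Of all genes DESeq2 called 2.59%.

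**Figure D4:**
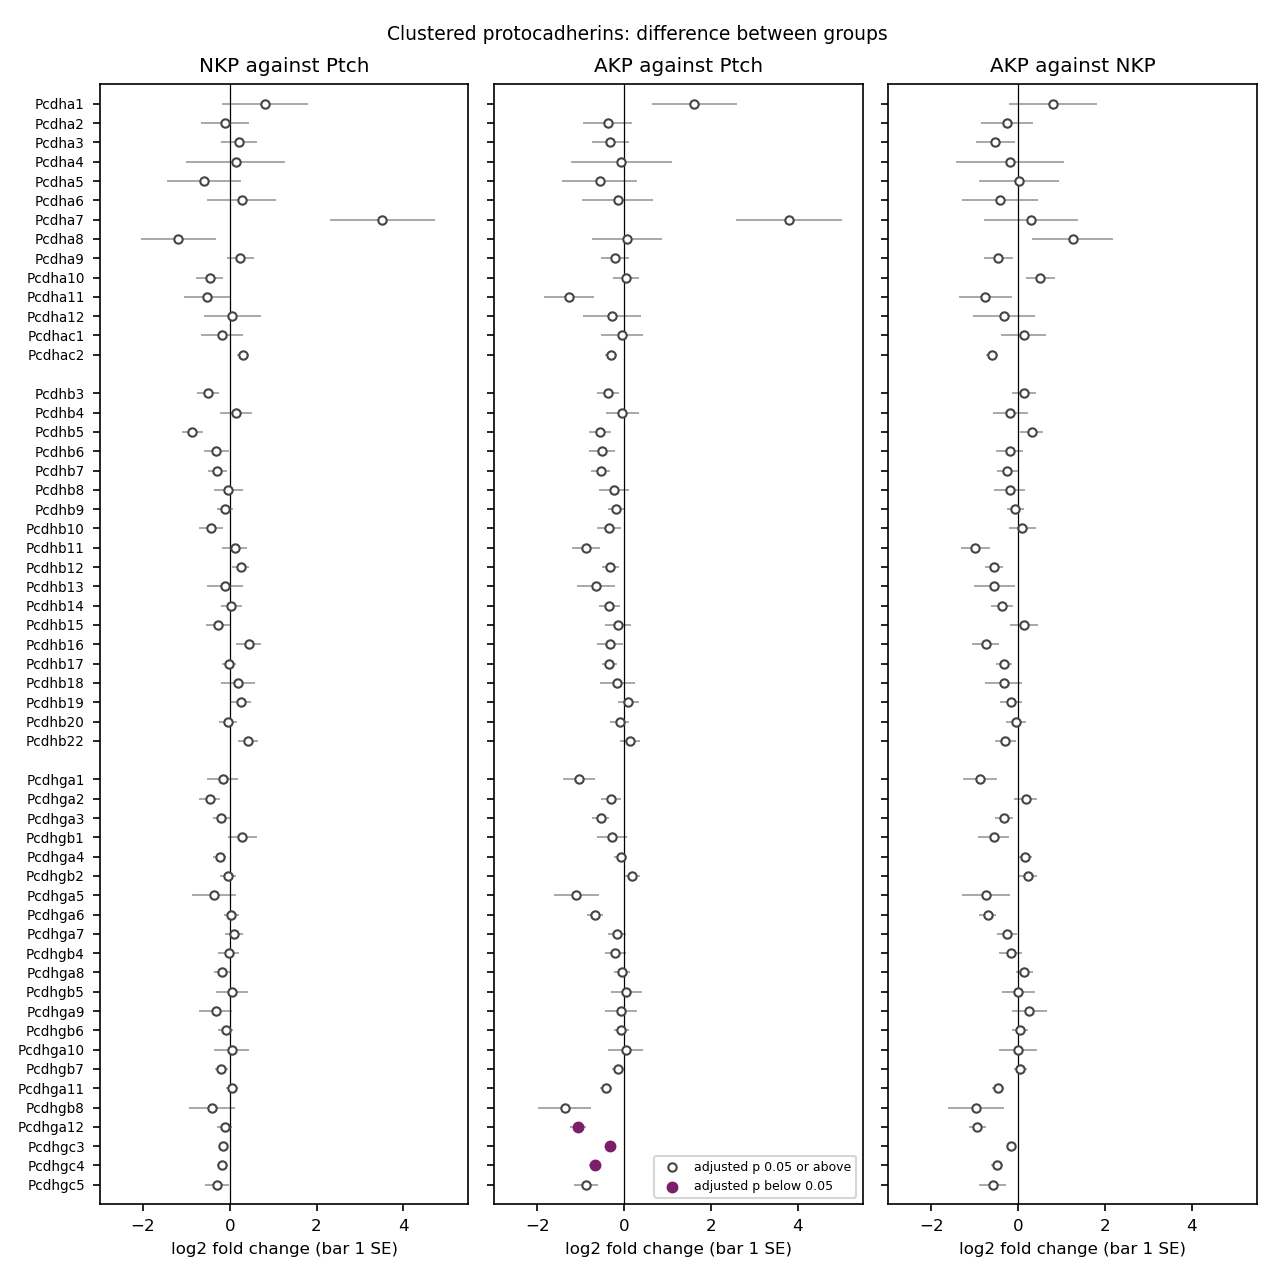
Log2 fold change of each of the 55 tested clustered protocadherin genes in NKP against Ptch, AKP against Ptch and AKP against NKP (points, with bars of 1 SE), in chromosomal order within the alpha, beta and gamma clusters from top to bottom. Filled points passed an adjusted p below 0.05 and are Pcdhga12, Pcdhgc3 and Pcdhgc4 in AKP against Ptch; the widest bars belong to alpha genes, and Pcdha7 lies far to the right in both comparisons with Ptch.

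In NKP against Ptch, the comparison of the Nestin-Cre tumours with the same controls, 0 of 55 members were called by edgeR, as were 0% of all genes. At an unadjusted p below 0.05, Pcdha7 and Pcdhac2 were higher and Pcdhb5 was lower, where 6.79% of all genes were higher and 10.2% lower. DESeq2 called 0 of 54 members with an adjusted p, while 2.59% of genes were called. Groups did not overlap for 3 members that were higher and 2 that were lower, against 6.96% and 8.95% of all genes. Neither count exceeded its share over all genes. The median log2 fold change was 0.095 over the alpha, -0.030 over the beta and -0.17 over the gamma genes, against 0.014 over all genes tested. The count was 1 with age as a covariate (Pcdhb5) and 3 among libraries aged 4 months (Pcdhb5, Pcdhac2 and Pcdha10), settings in which 5.97% and 16.2% of all genes were called.

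Pcdhb5 was at 2.54, 2.76 and 2.35 CPM in NKP 1 to 3 and 5.39, 5.68, 4.02 and 3.49 CPM in Ptch 1 to 4. All NKP libraries lay below all Ptch libraries, and the fold change was -0.86 on the log2 scale (SE 0.25, adjusted p = 0.218). Pcdhac2 was at 44.2, 48.1 and 44.7 CPM in NKP libraries, close to the highest Ptch library, and its log2 fold change was 0.30 (adjusted p = 0.281). Pcdhb3 and Pcdhga2 had log2 fold changes of -0.50 and -0.47 (adjusted p = 0.330 and 0.337) with overlapping groups. The 3 gamma C-type genes lay at -0.17 for Pcdhgc3, -0.18 for Pcdhgc4 and -0.28 for Pcdhgc5, with the smallest adjusted p of the 3 at 0.348. Pcdhac1 lay at -0.18 (adjusted p = 0.882) and changed sign in 3 of 23 alternatives. Both comparisons share the Ptch libraries, so that like signs in them are not independent.

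Pcdha7 had the largest fold change of the family in both comparisons with Ptch, and did not pass the test in either. It had 48, 71 and 91 counts in the NKP libraries and 9, 141 and 64 in the AKP libraries, against 26 in Ptch 2 and 0 in Ptch 1, Ptch 3 and Ptch 4. The log2 fold change was 3.52 in NKP against Ptch (adjusted p = 0.230) and 3.81 in AKP against Ptch (adjusted p = 0.0974). Both values rested on the 26 counts in Ptch 2: without that library the fitted values were 9.02 and 9.32 against a group at 0 throughout, where they depend on the fit and give no size, and Pcdha7 was called in 0 of 23 alternatives. The table also lists Gm38667, a joined gene model that starts at Pcdha7 and ends with the gamma cluster. Gm38667 had 0 counts in all 6 NKP and AKP libraries and 37, 10, 54 and 36 counts in Ptch 1 to 4. Ptch 2 was the only library with counts on both. With both added together, there were 48, 71 and 91 counts in NKP, 9, 141 and 64 in AKP and 37, 36, 54 and 36 in Ptch libraries. Scaled to CPM, the sum was at 3.93, 3.92 and 4.98 in NKP, 0.740, 10.2 and 4.72 in AKP and 2.85, 1.86, 2.75 and 2.28 in Ptch libraries. All NKP libraries thus still lay above all Ptch libraries, whereas the AKP range enclosed the Ptch range. The log2 fold change of the sum was 0.82 in NKP against Ptch (adjusted p = 0.488) and 1.11 in AKP against Ptch (adjusted p = 0.266). How reads were assigned between the 2 was not tested, and the sum was chosen after seeing the data. Similar models start at Pcdha4 (Gm37013) and Pcdha6 (Gm38666). Adding all 3 to their alpha genes left 3 members called in AKP against Ptch, the same genes as before.

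**Figure D5:**
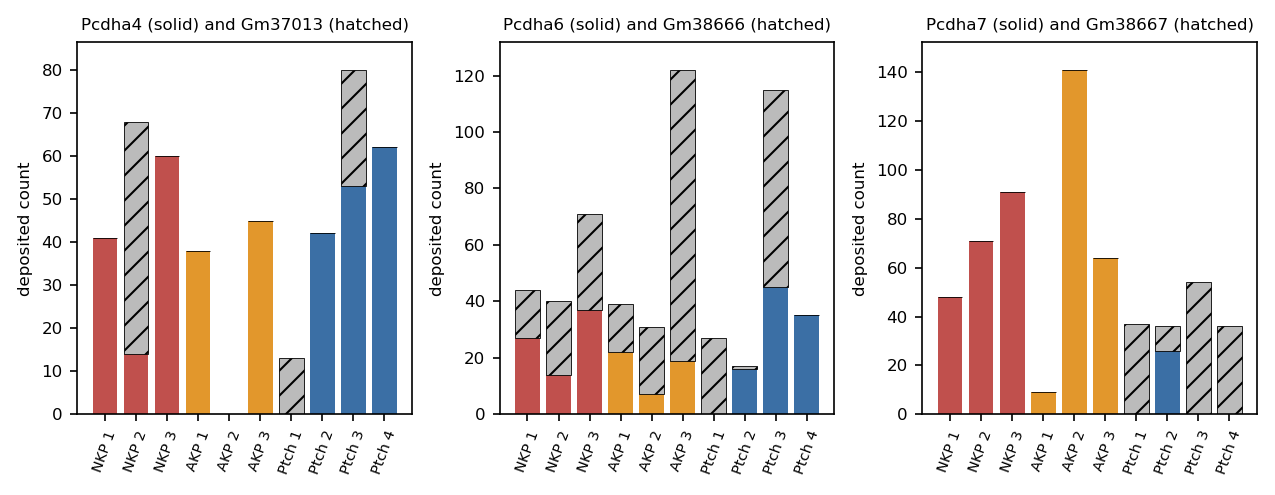
Deposited counts of Pcdha4, Pcdha6 and Pcdha7 (solid bars, coloured by group) and of the joined gene models that start at each of them (hatched, stacked on top) in the 3 NKP, 3 AKP and 4 Ptch libraries. For Pcdha7 the hatched counts occur in the Ptch libraries alone (10 to 54 counts), where the solid bars are at 0 except for 26 counts in Ptch 2.

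AKP against NKP compares the tumour groups directly, and 0 of 55 members were called by edgeR, where 0.0064% of all genes were. All NKP libraries came from mice aged 4 months, but AKP 1 and AKP 2 from mice aged 2 months. Age and tumour group were thus partly mixed. At an unadjusted p below 0.05 there were 9 lower members and 0 higher, against 8.04% of all genes lower and 8.82% higher. Groups did not overlap for 9 lower members and 1 higher, against 9.52% and 6.69% of all genes. The median log2 fold change was -0.23 over the alpha, -0.20 over the beta and -0.22 over the gamma genes, against -0.010 over all genes tested. DESeq2 called 2 members lower, Pcdhac2 (-0.61, adjusted p = 0.0378) and Pcdhga6 (-0.70, adjusted p = 0.0390), of only 7 with an adjusted p, while 1.02% of genes were called lower. Without AKP 1, edgeR called 6 members lower (Pcdha12, Pcdhac2, Pcdhb12, Pcdhga12, Pcdhga6 and Pcdhga7), while 4.12% of genes were called lower, and among libraries aged 4 months, with AKP 3 as the lone AKP library, it called 2 lower (Pcdha12 and Pcdhga6), where 0.155% of genes were called lower.

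Pcdhga12 had the smallest p, with 14.5, 9.96 and 11.3 CPM in AKP 1 to 3 and 17.5, 25.9 and 25.0 CPM in NKP 1 to 3. Its groups did not overlap, and the log2 fold change was -0.94 (SE 0.20, adjusted p = 0.228). Pcdhac2 was next, with 34.9, 24.2 and 31.0 CPM in AKP against the narrow range of 44.2 to 48.1 CPM in NKP libraries. Its log2 fold change of -0.61 did not pass edgeR's test (SE 0.15, adjusted p = 0.228). Pcdhga6, another A-type gene, was at 23.8, 16.9 and 14.2 CPM in AKP and 34.7, 27.9 and 26.8 CPM in NKP libraries, again without overlap (-0.70, SE 0.19, adjusted p = 0.228). Pcdhgc4 lay at -0.49 (adjusted p = 0.228) and Pcdhgc3 at -0.17 (adjusted p = 0.373), both without overlap, and Pcdhgc5 at -0.59 (adjusted p = 0.342) with overlap. Among beta genes Pcdhb11 lay at -0.99 (adjusted p = 0.228) and Pcdhb12 at -0.57 (adjusted p = 0.238). Pcdha10 lay at 0.51 (adjusted p = 0.429), the only member without overlap that was higher in AKP. Pcdhac1 lay at 0.13 (adjusted p = 0.920) and changed sign in 4 of 22 alternatives. Pcdha12, called only in settings without AKP 1, was at 14.0 CPM in AKP 1 and 1.80 and 1.47 CPM in AKP 2 and AKP 3, a range that enclosed the 6.08 to 8.10 CPM of the NKP libraries.

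Genes that act on the clusters were also read. Of 20 architecture and silencing factors, 3 were called lower in AKP than in Ptch and 0 higher, where 2.3% and 3.38% of all genes were. Their median log2 fold change was -0.26. Over all genes, DESeq2 called 1792 of 13746 with an adjusted p. Of the 20 factors DESeq2 called 5, and the count ran from 0 to 5 over 23 alternatives, with 0 without AKP 2, AKP 3, Ptch 1 or Ptch 2. The called genes were Dnmt1, the maintenance DNA methyltransferase, at 41.7, 50.1 and 50.6 CPM in AKP and 61.2 to 95.3 CPM in Ptch libraries (-0.73, adjusted p = 0.0318), and the cohesin genes Smc1a (-0.38, adjusted p = 0.0372) and Stag1 (-0.38, adjusted p = 0.0469). Ctcf, which anchors the loops from protocadherin promoters to their enhancers, was at 74.1, 70.5 and 78.3 CPM in AKP and 83.5 to 88.6 CPM in Ptch libraries. Its groups did not overlap, but the log2 fold change of -0.20 did not pass (adjusted p = 0.181). Smchd1, a silencer of the clusters in mouse, lay at -0.32 without overlap and did not pass (adjusted p = 0.0687). In NKP against Ptch 0 of the 20 were called by edgeR, as were 0% of all genes. At an unadjusted p below 0.05, 7 were lower, where 10.2% of all genes were. DESeq2 called 1, while 2.59% of genes were called. In AKP against NKP 0 were called by edgeR or DESeq2, and 1 was lower at an unadjusted p below 0.05, where 8.04% of all genes were.

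Signalling partners, other protocadherins and neighbouring genes had medians closer to that of all genes (-0.019) than the family's (-0.28) in AKP against Ptch. Of 21 signalling and proteolysis partners, 1 was called in AKP against Ptch, Brk1, a subunit of the WAVE actin-regulating complex (0.41, adjusted p = 0.0417), and the median was -0.089. Ptk2, the focal adhesion kinase that alpha and gamma tails inhibit, lay at -0.11 (adjusted p = 0.506). Of 12 protocadherin genes outside the clusters 0 were called by edgeR (2 at an unadjusted p below 0.05, and 1 called by DESeq2), with a median of 0.025. Of 27 tested genes between or within 500000 bases of the clusters, Ndufa2, a subunit of respiratory complex I, and Pfdn1, a subunit of the prefoldin chaperone, were higher in AKP (0.53 and 0.44, adjusted p = 0.0300 and 0.0431). Ankhd1, an ankyrin repeat protein, was lower (-0.62, adjusted p = 0.0317), and the median over the 27 was 0.061. Over 23 alternatives the counts ran from 0 to 2 for the partners and 0 to 5 for the neighbouring genes, and both were 0 when AKP 2, AKP 3 or any Ptch library was left out. DESeq2 called 2 and 5. Over all genes in AKP against Ptch, edgeR called 3.38% higher and 2.3% lower, and DESeq2 called 1792 of 13746. At an unadjusted p below 0.05, 12.4% of all genes were higher there and 12.7% lower. In NKP against Ptch 0 genes of these 3 lists were called by edgeR, as were 0% of all genes. At an unadjusted p below 0.05 there were 5, where 6.79% of all genes were higher and 10.2% lower. DESeq2 called 1, while 2.59% of genes were called. In AKP against NKP 0 were called by edgeR or DESeq2. At an unadjusted p below 0.05 there were 8, where 8.82% of all genes were higher and 8.04% lower.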

How the data were processed

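RNA-seq libraries from the cerebellum or medulloblastoma in 10 mouse samples (NKP 3, AKP 3, Ptch 4) were used. The authors deposited expected counts per gene symbol, made with Trim Galore, STAR and RSEM on GRCm38, per the submitters' processing notes. Their versions, and the annotation, were not given in the sources used here. All deposited values were whole, so rounding changed none. Per the labels' protocols, the kit was one without strand marking. Groups came from the labels. Members and lists were chosen with earlier results of these data known. edgeR 4.0.16 (TMM scaling, filterByExpr, robust quasi-likelihood F test, R 4.3.3) was fitted to all 10 libraries and 15617 genes, with Benjamini-Hochberg adjustment over all of them, after the steps were tested on simulated data. The SE is the absolute log2 fold change over the square root of F. CPM are TMM-scaled, and CPM per kb use the longest transcript. Transcript lengths and gene positions came from GENCODE vM21 and RefSeq, in which 39754 of 39769 symbols matched. Genes named were the C-type genes, the 2 members of smallest p per cluster and comparison, and called members. Also named were the 2 highest and 2 lowest members per cluster, called genes of the 4 lists, and Ctcf, Smchd1 and Ptk2. Kmt2d, Mki67 and Atoh1 were named to check the labels. Other members are said to be named later. Single genes of the cell type lists were otherwise named after their values were seen. Over 23 alternatives, scaling, filters, covariates, libraries, DESeq2 1.42.0 and joined gene models were varied. The addition of joined gene models was chosen after seeing the data. Depth ran from 12300430 to 19348991 counts per library, which limits genes with few counts.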

Additional observations from a re-analysis of the deposited data

Results flagged for a closer look

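Pcdha7 in the Ptch group had 1 library far from the others. It was at 1.34 CPM in Ptch 2 and at 0 in Ptch 1, Ptch 3 and Ptch 4, so that the gap equalled the whole range of the group. With all other libraries of the group at 0, this holds for any value above 0, so the usual rate of about 1 in 20 groups flagged by chance does not apply. Of 27 items tested in this way 1 was flagged. Ptch 1, Ptch 3 and Ptch 4 had 37, 54 and 36 counts on the joined gene model Gm38667.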

How the results depend on the processing

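Called members numbered 0 in NKP against Ptch, where 0 of all genes were called. They numbered 1 with age as a covariate, where 5.97% of all genes were called, and 3 among age-matched libraries, where 16.2% were. Leaving out single libraries gave 0 members and 0 genes. In AKP against Ptch they numbered 3, with 887 of all genes called. They numbered 0 among age-matched libraries and without the 4 libraries against the sex label, each with 0 genes called. With length and GC correction they numbered 0, with 12 genes called. DESeq2 called 6 members and 1792 genes. Leaving out single libraries gave 0 to 6 members and 0 to 1459 genes. In AKP against NKP they numbered 0, with 1 of all genes called, and 2 with DESeq2, which called 197 genes. Leaving out single libraries gave 0 to 6 members and 0 to 1364 genes. Settings that left a group with 1 library assume that it varies like the other groups. The cause of these changes was not tested.

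Same-numbered libraries had correlations of deviations from -0.33 to 0.34, so the numbers were not taken to pair them. With the replicate block, 0 members and 0 genes were called in AKP against Ptch, and the alpha median was -0.30 there and -0.36 in AKP against NKP.

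Leaving out single libraries gave alpha medians between -0.071 and 0.20 in NKP against Ptch, between -0.32 and 0.10 in AKP against Ptch and between -0.31 and -0.018 in AKP against NKP. The gamma median ran from -0.40 to -0.23 in AKP against Ptch and from -0.33 to -0.17 in AKP against NKP, and the beta median from -0.36 to -0.13 in AKP against NKP. With length and GC correction, which covered 95.6% of tested genes, the alpha median was -0.040 and the gamma median -0.15 in AKP against Ptch, and -0.10 and -0.12 in AKP against NKP. Among age-matched libraries the gamma median was -0.16 in AKP against Ptch and the alpha median -0.032 in AKP against NKP. Without the 4 libraries against the sex label the alpha median was -0.088, and with age as a covariate the beta median was -0.41, both in AKP against NKP.

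Pcdhac1 changed sign. In NKP against Ptch it was 0.035 with age as a covariate and 0.28 without the 4 libraries, and -0.35 to 0.019 with single libraries left out. In AKP against Ptch it was 0.46 among age-matched libraries, 0.10 with length and GC correction and 0.90 without the 4 libraries, and -0.88 to 0.35 with single libraries left out. In AKP against NKP it was -0.26 with age as a covariate and -1.29 among age-matched libraries, and -0.71 to 0.53 with single libraries left out.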
